A study of Mus musculus with 36 samples.

Results

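The 10 genes described here mark the hepatocytes around the central vein of the liver lobule: *Glul*, *Oat*, *Slc1a2*, *Cyp2e1*, *Cyp1a2*, *Gulo*, *Axin2*, *Rnf43*, *Lgr5* and *Tbx3*. These 10 genes were chosen by name, with earlier results of these data known. All 10 were found by their Ensembl identifiers among the 78239 gene rows of the deposited count files. The mice were wild-type C57BL/6NCrl males aged 8, 10 or 12 weeks, and RNA of liver, kidney and heart was measured. There were 4 libraries for each tissue and age, called biological replicates in the study's methods, and 36 in all. All mice were anesthetized with ketamine and xylazine before the organs were taken, the labels name no other treatment, and the libraries were made from polyadenylated RNA of homogenized tissue. In such bulk samples, fewer cells of a type and less RNA per cell cannot be told apart. Between 21031599 and 33637390 read pairs per library were counted on genes. Levels are given as CPM, the count of a gene relative to all counted pairs of its library, and changes as log2 fold changes from edgeR after TMM scaling. TMM is a factor per library that sets aside genes with extreme values.

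Blood enters the liver lobule at the portal vein and leaves it at the central vein, and hepatocytes differ in their enzymes along this path. Endothelial cells of the central vein release Wnt ligands and R-spondin, which keep beta-catenin active in the hepatocytes next to them. Beta-catenin acts with TCF/LEF factors on DNA, and this program covers glutamine synthesis from ammonia, cytochrome P450 enzymes that act on drugs and alcohol, and feedback genes of the Wnt pathway itself. The 10 genes hold examples of each of these roles.

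The promoter windows that hold a TCF/LEF core motif are shown first, because this motif is the sequence feature by which beta-catenin is known to reach DNA. The windows cover the 250 bases before the start of the canonical transcript, from the GENCODE annotation and the GRCm39 genome, and the letters CTTTGAA and CTTTGAT were searched on both strands. CTTTGAA was found in 3 of the 10 windows, those of *Cyp2e1*, *Cyp1a2* and *Axin2*, and in 4.84% of 21770 windows of protein-coding genes. CTTTGAT, which 2.86% of all windows hold, was in none of the 10. In the sequences, written 5′ to 3′ along the strand of the gene, capitals mark the motif, with TTCAAAG being the same motif on the other strand.
*Cyp2e1*, chr7:140343402-140343651 of GRCm39, plus strand: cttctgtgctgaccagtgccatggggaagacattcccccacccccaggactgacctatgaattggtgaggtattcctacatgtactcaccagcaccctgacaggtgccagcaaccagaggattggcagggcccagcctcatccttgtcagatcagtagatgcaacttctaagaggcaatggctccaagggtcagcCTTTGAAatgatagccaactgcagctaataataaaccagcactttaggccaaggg
*Cyp1a2*, chr9:57590987-57591236 of GRCm39, minus strand: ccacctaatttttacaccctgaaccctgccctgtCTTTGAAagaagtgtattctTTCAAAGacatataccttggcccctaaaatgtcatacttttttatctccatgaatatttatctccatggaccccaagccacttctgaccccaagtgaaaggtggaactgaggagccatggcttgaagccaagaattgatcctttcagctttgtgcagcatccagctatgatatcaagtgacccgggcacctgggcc
*Axin2*, chr11:108811388-108811625 of GRCm39, plus strand: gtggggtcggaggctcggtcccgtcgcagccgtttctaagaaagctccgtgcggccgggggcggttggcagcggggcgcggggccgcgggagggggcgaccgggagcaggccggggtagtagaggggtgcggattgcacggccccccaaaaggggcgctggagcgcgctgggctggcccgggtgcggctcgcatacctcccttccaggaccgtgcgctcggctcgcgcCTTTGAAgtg
The *Axin2* window is shown without its last 12 bases, which an annotated exon covers. Counted back from the transcript start, the motif lay at -55 to -49 in *Cyp2e1*, at -216 to -210 and, on the other strand, -196 to -190 in *Cyp1a2*, and at -22 to -16 in *Axin2*. The windows differed in base composition. That of *Cyp2e1* held 0 CpG dinucleotides and that of *Cyp1a2* 1, against 30 in that of *Axin2* and a median of 8 over all windows. The AhR core GCGTG, present on either strand in 31.2% of all windows, was in those of *Glul* and *Slc1a2*. HNF1 (GTTAAT, any base, then ATTA, both strands, 0.124% of all windows), HNF4 (CAAAGTCCA, both strands, 0.372%) and TATAAA (strand of the gene, 8.03%) gave no match in the 10 windows, which says only that these letters are not there.

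Between genes, levels were compared per kilobase of annotated exon. In liver, *Cyp2e1* stood highest, at 2771 ± 402 CPM per kb (SD, n = 12), followed by *Cyp1a2* at 311 ± 67.8, *Glul* at 247 ± 37.5, *Gulo* at 164 ± 20.9 and *Oat* at 123 ± 24.1 CPM per kb. *Slc1a2* followed at 16.4 ± 2.88, *Rnf43* at 3.46 ± 1.03, *Tbx3* at 3.34 ± 1.32, *Axin2* at 0.934 ± 0.337 and *Lgr5* at 0.451 ± 0.0969 CPM per kb. The 5 enzymes thus stood above the transporter, and the transporter above the Wnt receptors, regulators and the transcription factor. *Cyp1a2* and *Glul* differed by less than the SD of *Cyp1a2*, and *Rnf43* and *Tbx3* by less than the SD of either. Exon length takes in every annotated exon, so a gene with long exons that liver does not use is set too low. A second limit lies in the counting. For *Glul*, a copy at 95% identity or more on chromosome 11 covers 66.7% of the transcript, and read pairs that match both places equally well are not counted. For *Tbx3*, 18.3% of the exon bases overlap the antisense genes *Tbx3os1* and *Tbx3os2*. The counts carry no strand, and pairs in the overlap were assigned to neither gene.

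**Figure D1:**
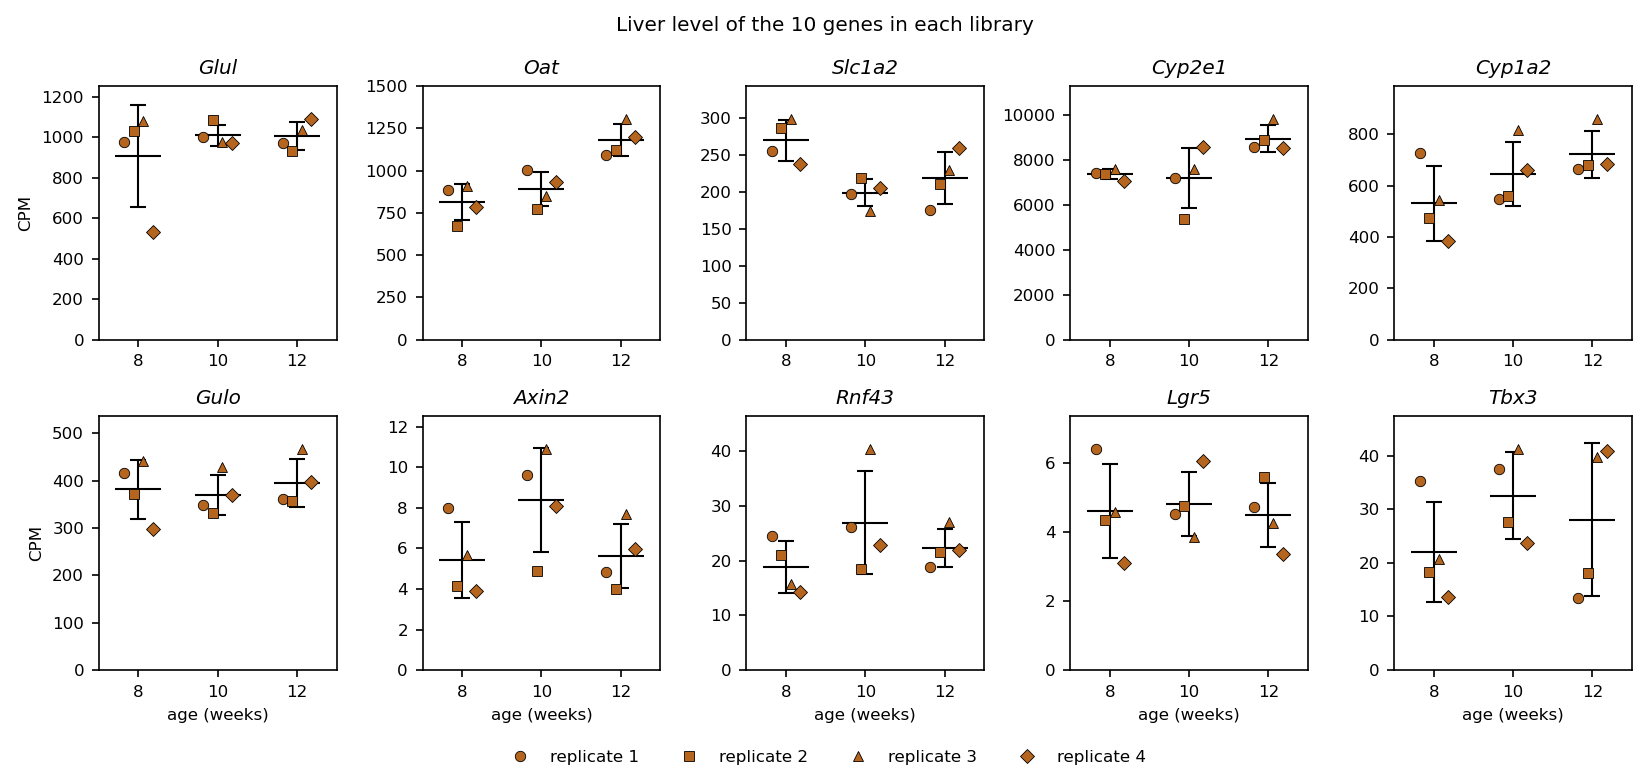
Liver level of the 10 genes (CPM, linear axis from 0) by age in weeks. Each point is a library, its shape gives the replicate number, and the bar and whiskers are the mean and SD of 4 libraries. The 12-week libraries of *Oat* and *Cyp2e1* lie above all 8-week libraries, and 8-week replicate 4 is the lowest of its age for 9 genes.

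Of the 10 genes, *Glul*, *Oat* and *Slc1a2* handle glutamine and glutamate. *Glul* (ENSMUSG00000026473, chr1:153775690-153785469), glutamine synthetase, joins ammonia to glutamate in the last hepatocytes before the central vein. It stood at 978, 1031, 1081 and 532 CPM at 8 weeks, at 1003, 1084, 976 and 970.3 at 10 weeks and at 971, 934, 1034 and 1089 at 12 weeks. Apart from 8-week replicate 4, all libraries lay between 934 and 1089 CPM, and the ages overlapped. At 12 against 8 weeks the log2 fold change with its standard error was 0.19 ± 0.16, not past the test (edgeR adjusted p = 0.609), and with single libraries left out it ranged from 0.03 to 0.30.

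*Oat* (ENSMUSG00000030934, chr7:132159153-132191517), ornithine aminotransferase, converts ornithine to a precursor of glutamate in mitochondria. Its levels were 885, 675, 910.3 and 787 CPM at 8 weeks, 1004, 774, 849.8 and 934 at 10 weeks, and 1092, 1123, 1305 and 1201 at 12 weeks. Every 12-week library was above every library of 8 and of 10 weeks, while those of 8 and 10 weeks overlapped. The log2 fold change was 0.56 ± 0.12 at 12 against 8 weeks (edgeR adjusted p = 0.0721) and 0.49 ± 0.12 at 12 against 10 weeks (edgeR adjusted p = 0.101), and 0.07 ± 0.12 at 10 against 8 weeks. These did not pass edgeR's adjusted p. DESeq2 called both, with adjusted p-values of 0.00104 and 0.00592. The direction held in all 12 fits that leave out a library, with log2 fold changes at 12 against 8 weeks from 0.46 to 0.62.

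*Slc1a2* (ENSMUSG00000005089, chr2:102488574-102621129), the glutamate transporter GLT-1, takes up glutamate for the glutamine synthetase cells. It was measured at 255, 287, 299 and 239 CPM at 8 weeks, 198, 219, 174 and 206 at 10 weeks, and 175, 211, 230.1 and 260.3 at 12 weeks. All 10-week libraries were below all 8-week libraries, and the 12-week libraries overlapped both. Between these ages the log2 fold change was -0.49 ± 0.13 (edgeR adjusted p = 0.147, DESeq2 adjusted p = 0.0252). At 12 against 8 weeks it was -0.27 ± 0.13 (edgeR adjusted p = 0.333).

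Among the detoxifying and biosynthetic enzymes, *Cyp2e1* (ENSMUSG00000025479, chr7:140343652-140355167) oxidizes ethanol and paracetamol. At 8 weeks its levels were 7433, 7386, 7578 and 7036 CPM, at 10 weeks 7180.3, 5371, 7577 and 8569.5, and at 12 weeks 8575, 8859, 9809 and 8535. The 4 libraries of 8 weeks were close together and all below those of 12 weeks, and 10-week replicates 2 and 4 held the lowest level of all and the highest before 12 weeks. edgeR gave a log2 fold change of 0.31 ± 0.12 at 12 against 8 weeks (edgeR adjusted p = 0.255) and 0.41 ± 0.12 at 12 against 10 weeks (edgeR adjusted p = 0.156, DESeq2 adjusted p = 0.0204).

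*Cyp1a2* (ENSMUSG00000032310, chr9:57584196-57590986), which metabolizes caffeine and is a target of the aryl hydrocarbon receptor, stood at 728, 473, 544 and 383 CPM at 8 weeks. It stood at 549.5, 559, 818 and 661 CPM at 10 weeks and at 664, 681, 859 and 686 at 12 weeks. The 12-week libraries were above 3 of the 4 libraries of 8 weeks, and 8-week replicate 1 was above 3 of those of 12 weeks. Its log2 fold change at 12 against 8 weeks was 0.48 ± 0.17 (edgeR adjusted p = 0.233).

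*Gulo* (ENSMUSG00000034450, chr14:66224235-66246711), the last enzyme of ascorbate synthesis in mice, was measured at 416, 373, 441 and 299 CPM at 8 weeks, 349, 331, 430.2 and 370.1 at 10 weeks, and 362, 358, 466 and 397 at 12 weeks. The ages overlapped throughout, and the log2 fold change at 12 against 8 weeks was 0.08 ± 0.13 (edgeR adjusted p = 0.801).

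The genes of the Wnt pathway and *Tbx3* had the lowest levels per kilobase. *Axin2* (ENSMUSG00000000142, chr11:108811169-108841609) is a feedback inhibitor in the complex that degrades beta-catenin and a target of the pathway in many tissues. Its levels were 7.98, 4.14, 5.66 and 3.89 CPM at 8 weeks, 9.63, 4.91, 10.9 and 8.12 at 10 weeks, and 4.82, 4.01, 7.67 and 6.00 at 12 weeks, from 88 to 257 read pairs per library. Of the 10-week libraries, 3 held the highest levels, but the ages overlapped. For *Axin2*, the log2 fold change was 0.57 ± 0.28 at 10 against 8 weeks (edgeR adjusted p = 0.377), -0.48 ± 0.28 at 12 against 10 weeks and 0.09 ± 0.28 at 12 against 8 weeks (edgeR adjusted p = 0.906).

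*Rnf43* (ENSMUSG00000034177, chr11:87553548-87626377) encodes a ubiquitin ligase that removes Wnt receptors from the cell surface. It stood at 24.5, 21.0, 15.8 and 14.2 CPM at 8 weeks, 26.2, 18.5, 40.4 and 22.8 at 10 weeks, and 18.8, 21.6, 27.1 and 22.02 at 12 weeks. Replicate 3 of 10 weeks was far above the others, and the log2 fold change at 12 against 8 weeks was 0.28 ± 0.22 (edgeR adjusted p = 0.570). Leaving out 12-week replicate 3 gave 0.16, and leaving out 8-week replicate 1 gave 0.42.

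*Lgr5* (ENSMUSG00000020140, chr10:115286216-115423685), the R-spondin receptor known from stem cells of the gut, had between 70 and 186 read pairs per liver library. Its levels were 6.39, 4.35, 4.56 and 3.09 CPM at 8 weeks, 4.52, 4.76, 3.85 and 6.06 at 10 weeks, and 4.72, 5.59, 4.26 and 3.37 at 12 weeks. The 3 ages covered the same range, and the log2 fold change at 12 against 8 weeks was -0.00 ± 0.21 (edgeR adjusted p = 0.994), with either sign among the alternatives.

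*Tbx3* (ENSMUSG00000018604, chr5:119806298-119822797), a T-box transcription factor and beta-catenin target in liver, was the most variable of the 10. It was measured at 35.2, 18.3, 20.7 and 13.7 CPM at 8 weeks, 37.4, 27.7, 41.2 and 23.8 at 10 weeks, and 13.5, 18.1, 39.7 and 40.8 at 12 weeks. At 12 weeks the libraries fell into a low and a high pair, and the coefficient of variation within that age was 50.8%. For this gene the log2 fold change at 12 against 8 weeks was 0.40 ± 0.36 (edgeR adjusted p = 0.643). Single libraries moved it over 1.5 times either way. It was 0.16 with 12-week replicate 4 left out, 0.17 with 12-week replicate 3, 0.25 with 8-week replicate 4, 0.63 with 12-week replicate 1 and 0.71 with 8-week replicate 1.

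Over the 10 genes in liver, edgeR's adjusted p called 0 at 12 against 8 weeks, where 0.239% of the 14672 genes tested were called. At an unadjusted p under 0.05, 3 were higher at 12 weeks (*Oat*, *Cyp1a2* and *Cyp2e1*) and 0 lower, against 7.37% and 7.77% of all genes. DESeq2 called 1, *Oat* (2.88% of all genes), and limma-voom 0. The median log2 fold change of the 10 genes was 0.24 and that of all genes tested -0.00, with 8 of the 10 above 0. Levels without overlap between the ages were found for 2 genes, *Oat* and *Cyp2e1*, both higher at 12 weeks, as were those of 3.48% of all genes. At 10 against 8 weeks, edgeR called 0 of the 10 (0.0204% of all genes), and 1 was lower at an unadjusted p under 0.05 (7.27% of all genes) and without overlap (3.22%), which was *Slc1a2*. DESeq2 called this gene (2.43% of all genes) and limma-voom 0. At 12 against 10 weeks, edgeR and limma-voom called 0 (edgeR, 0.0545% of all genes), DESeq2 called *Oat* and *Cyp2e1* (3.31%), and the same 2 were higher at an unadjusted p under 0.05 (6.36% of all genes). *Oat* was without overlap there, as were 1.25% of all genes in that direction.

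**Figure D2:**
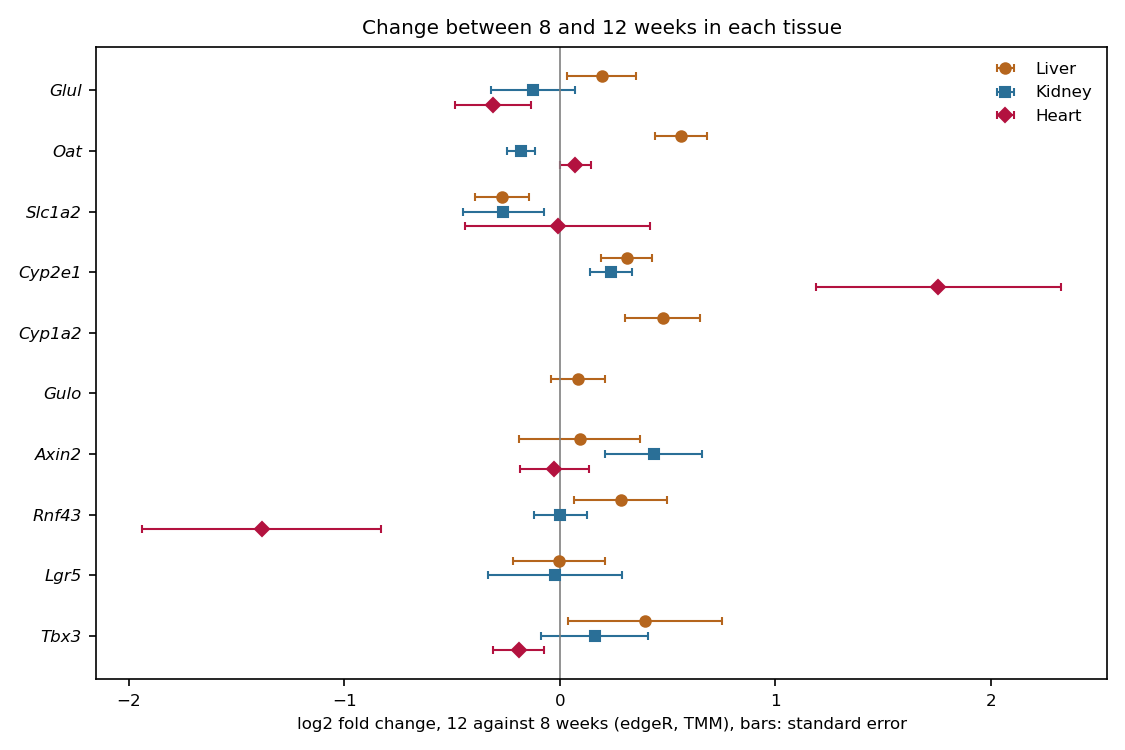
Log2 fold change at 12 against 8 weeks of each gene in liver, kidney and heart, from edgeR with TMM scaling, with standard errors as bars. *Cyp1a2* and *Gulo* were not tested in kidney and heart and *Lgr5* not in heart. *Oat* has 0.56 in liver, -0.18 in kidney and 0.07 in heart.

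A single liver library stood apart. Replicate 4 of 8 weeks was the lowest of its age for 9 of the 10 genes in CPM, all but *Oat*, and for 6 of them after division by its TMM factor of 0.927. It was also the lowest of its age in 8 of 10 marker lists for cell types. Among these, the cardiomyocyte, kidney and neutrophil sums rest on few read pairs, at 0.177, 0.486 and 0.575 CPM in this library. Its summed central vein endothelium markers (6 genes) stood at 12.02 CPM against 21.25 to 28.6 in the other 8-week libraries, and its summed Kupffer cell markers at 75.4 against 173 to 185. The sum of 5 hepatocyte markers was the highest of its age there, at 110500 CPM against 91250 to 94940. Of the read pairs of this library, 2.81% were unmapped, against 5.60% to 13.0% in the other liver libraries. The part of this share and of these cell types in the levels of the 10 genes was not tested. Without this library, edgeR called 0 of the 10 at each of the 3 age comparisons, as with it. The central vein endothelium list is not specific to liver, with sums of 203 to 285 CPM in heart and 60.8 to 83.3 in kidney. Its members *Wnt2*, *Wnt9b* and *Rspo3* had liver medians of 3.17, 1.41 and 4.21 CPM. Across ages, this list lay in liver at 12.02 to 28.6 CPM at 8 weeks, 24.8 to 32.7 at 10 weeks and 9.28 to 25 at 12 weeks. In the same order, the sinusoidal endothelium list lay at 139 to 270 CPM, 209 to 240 and 101 to 144, the Kupffer cell list at 75.4 to 185, 213 to 319 and 113.3 to 126, and the cholangiocyte list at 17.3 to 25.4, 28.8 to 38.0 and 24.4 to 36.9. The hepatocyte list lay at 91250 to 110500, 69770 to 88030 and 83210 to 105200. At 10 weeks the Kupffer cell sums lay above those of both other ages, the cholangiocyte sums above and the hepatocyte sums below those of 8 weeks. The levels of *Slc1a2* also lay below those of 8 weeks then. At 12 weeks the sinusoidal endothelium and Kupffer cell sums lay below those of 10 weeks, and the levels of *Oat* lay above. The part of these cell types in the levels of *Slc1a2* and *Oat* was not tested. Cardiomyocyte and kidney markers summed to at most 1.19 and 1.76 CPM in any liver library, and *Myh6*, *Myl2*, *Nppa*, *Umod* and *Aqp2* were at 0 in all 12.

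Genes with related roles were grouped in 6 lists and counted in liver at 12 against 8 weeks. The lists were chosen with earlier results of these data known, so their counts are a description and not an independent test. Of 30 other genes of pericentral hepatocytes, all tested, 3 rose and 0 fell past edgeR's adjusted p, against 0.177% and 0.0613% of all genes tested. They were *Cyp2c50* (log2 fold change 0.87 ± 0.15), *Cyp2c54* (0.77 ± 0.13) and *Aldh1a1* (1.00 ± 0.16), with edgeR adjusted p = 0.0312 each. The first 2 are cytochromes of drug and fatty acid oxidation, and *Aldh1a1* is a retinaldehyde dehydrogenase. In the list, 25 of 30 were above 0, as were 7230 of the 14672 genes tested, and the median was 0.39. At an unadjusted p under 0.05, 15 of the 30 were higher and 1 was lower, against 7.37% and 7.77% of all genes. Without 8-week replicate 4, 3 were again called, *Cyp2a5*, *Cyp2c50* and *Aldh1a1*, and the median was 0.37. At 10 against 8 weeks 0 of the 30 passed, and at an unadjusted p 11 were higher and 3 lower (7.04% and 7.27% of all genes). At 12 against 10 weeks only *Cyp2a5*, a coumarin hydroxylase, rose (log2 fold change 1.22 ± 0.19, edgeR adjusted p = 0.0458), as did 0.0204% of all genes.

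Of 14 other Wnt target and feedback genes, 10 were tested and 0 passed at 12 against 8 weeks. At an unadjusted p under 0.05, 4 were higher and 0 lower, against 7.37% and 7.77% of all genes. The largest log2 fold changes were 2.11 ± 0.79 for *Myc*, the cell growth regulator, and 1.23 ± 0.45 for *Sp5*, a repressor induced by Wnt, and the lowest were -0.36 ± 0.18 for *Dkk3* and -0.27 ± 0.25 for *Nkd1*. Over the liver libraries, *Myc* ran from 0.974 to 43.6 CPM and *Sp5* from 0.460 to 3.66. The median of the list was 0.34. Of 29 receptors, destruction complex members and cofactors of the pathway, 25 were tested and 0 passed, with a median of -0.02. At an unadjusted p, 1 was higher and 2 were lower (7.37% and 7.77% of all genes). *Fzd8* (0.61 ± 0.29) and *Fzd7* (0.58 ± 0.22), both Wnt receptors, were highest, and *Wls* (-0.64 ± 0.16), which carries Wnt proteins to the cell surface, and *Tcf7l1* (-0.39 ± 0.15), a TCF factor, lowest. Of 16 ligands and secreted modulators, 8 were tested, 0 passed and 0 had an unadjusted p under 0.05. The median was -0.38, with *Wnt9b* (0.45 ± 0.34) and *Wnt2* (-0.06 ± 0.43), the Wnt ligands of the central vein, highest and *Rspo1* (-1.17 ± 0.67) and *Wnt5b* (-0.57 ± 0.41) lowest. Levels were low, with *Wnt9b* at 0.732 to 2.63 CPM and *Rspo1* at 0 to 1.19 over the liver libraries.

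Of 30 periportal genes, which mark the opposite end of the lobule, all were tested and 0 passed at 12 against 8 weeks. At an unadjusted p, 3 were higher and 3 lower (7.37% and 7.77% of all genes). Below 0 were 21 of the 30, and the median was -0.12. *Sox9* (0.86 ± 0.35) and *Cyp2f2* (0.35 ± 0.12) were highest and *G6pc1* (-0.96 ± 0.58) and *Tat* (-0.86 ± 0.35), of glucose and tyrosine metabolism, lowest. Without 8-week replicate 4 the median was -0.03, with 16 of the 30 below 0. At 10 against 8 weeks the median was -0.33, with 0 past the adjusted p. Between these ages, 9 were lower and 1 higher at an unadjusted p (7.27% and 7.04% of all genes). Of 20 genes of glutamate and ammonia handling, which include *Glul*, *Oat* and *Slc1a2*, 16 were tested. *Slc38a2*, a transporter of glutamine and other neutral amino acids, fell (-0.84 ± 0.15, edgeR adjusted p = 0.0414), a call that was lost without 8-week replicate 4, and 0 rose. The median was -0.05.

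In kidney, 8 of the 10 genes were tested, since *Cyp1a2* and *Gulo* had too few counts, and edgeR called 0 at each age comparison. The called shares of the 17649 genes tested were 0.0567% at 12 against 8 weeks, 0.929% at 10 against 8 weeks and 0.482% at 12 against 10 weeks. At an unadjusted p under 0.05 there were 1 higher (*Cyp2e1*) and 1 lower (*Oat*) at 12 against 8 weeks, where 6.82% and 4.84% of all genes were. There were 2 higher (*Tbx3* and *Axin2*) and 1 lower (*Slc1a2*) at 10 against 8 weeks (8.96% and 7.57%), and 1 higher (*Cyp2e1*) and 1 lower (*Tbx3*) at 12 against 10 weeks (8.66% and 7.74%). limma-voom called 0 throughout, and DESeq2 called 0, 1 and 2 (0.737%, 3.76% and 3.72% of all genes). The genes DESeq2 called were *Tbx3* at 10 against 8 weeks and *Tbx3* and *Cyp2e1* at 12 against 10 weeks.

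*Tbx3* stood in kidney at 8.21, 7.84, 5.73 and 6.498 CPM at 8 weeks, 16.8, 15.0, 19.3 and 7.81 at 10 weeks, and 11.1, 5.35, 7.58 and 6.93 at 12 weeks. Of the 4 libraries of 10 weeks, 3 were above all others, and replicate 4 of that age lay within the range of 8 weeks. The log2 fold change was 1.05 ± 0.24 at 10 against 8 weeks (edgeR adjusted p = 0.0569) and -0.88 ± 0.24 at 12 against 10 weeks (edgeR adjusted p = 0.0984). Without 10-week replicate 4 both passed, at edgeR adjusted p = 0.00822 and 0.0156, and without 12-week replicate 1 the former passed at edgeR adjusted p = 0.0406.

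*Cyp2e1*, which kidney tubules also express, stood at 1922, 1910.2, 2304 and 2199 CPM at 8 weeks, 1603, 1851, 2088 and 2127 at 10 weeks, and 2364, 2448, 2594 and 2299 at 12 weeks. All 12-week libraries were above all 10-week libraries, as in 3.14% of all genes. The log2 fold change at 12 against 10 weeks was 0.38 ± 0.10 (edgeR adjusted p = 0.0854), and without 10-week replicate 4 it was 0.44 (edgeR adjusted p = 0.0392). *Axin2* had a log2 fold change of 0.66 ± 0.22 at 10 against 8 weeks (edgeR adjusted p = 0.160), with 1.78 to 2.67 CPM at 8 weeks and 2.33 to 5.03 at 10 weeks. *Oat* stood at 221 to 262 CPM at 8 weeks and 189 to 224 at 12 weeks, with a log2 fold change of -0.18 ± 0.07 (edgeR adjusted p = 0.330). *Slc1a2* stood at 6.02 to 7.28 CPM at 8 weeks and 3.79 to 6.23 at 10 weeks, with a log2 fold change of -0.51 ± 0.19 (edgeR adjusted p = 0.189). The log2 fold changes of the 3 age comparisons ran from -0.13 to -0.03 for *Glul*, from -0.21 to 0.21 for *Rnf43* and from -0.03 to 0.01 for *Lgr5*, with no unadjusted p under 0.05.

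In heart, 7 of the 10 genes were tested, without *Cyp1a2*, *Gulo* and *Lgr5*. *Cyp2e1* was the only one called and only at 10 against 8 weeks, where 0.76% of the 15137 genes tested were called higher and 1.06% in either direction (2.42% with DESeq2, which called *Cyp2e1* too). It had 2, 3, 6 and 1 read pairs at 8 weeks, 28, 18, 27 and 57 at 10 weeks, and 14, 13, 8 and 9 at 12 weeks. In CPM these were 0.0388 to 0.268, 0.828 to 2.35 and 0.269 to 0.641, against 5371 to 9809 in liver, so the gene was barely expressed in heart at any age. It rose by a log2 fold change of 3.43 ± 0.50 at 10 against 8 weeks (edgeR adjusted p = 0.00310). At 12 against 8 weeks the value was 1.76 ± 0.57 (edgeR adjusted p = 0.0797) and at 12 against 10 weeks -1.67 ± 0.41 (edgeR adjusted p = 0.227). No library of 10 weeks overlapped with those of 8 weeks (4.14% of all genes in that direction) or of 12 weeks (2.07%). Those of 12 weeks were above those of 8 weeks (8.49%), by less than a read pair between the nearest libraries.

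Markers of other cell types moved with this result. The 5 hepatocyte markers found in the files summed to 0.330, 16.9, 0.282 and 21.7 CPM in the 4 heart libraries of 10 weeks, against 0.0777 to 0.268 at 8 weeks and 0.320 to 3.57 at 12 weeks. *Alb*, the defining hepatocyte gene, had 10.3 and 15.2 CPM in 10-week replicates 2 and 4 and 0.0734 and 0.0806 in replicates 1 and 3. In these latter 2, *Cyp2e1* had 28 and 27 read pairs. With replicates 2 and 4 of 10 weeks left out, a setting chosen after the data had been seen, the log2 fold change was 3.10 ± 0.53 (edgeR adjusted p = 0.00944). The 6 adipocyte markers, a list added after the values were seen, summed to 1.94, 0.460, 1.29 and 0.330 CPM at 10 weeks, against 0 to 0.304 at 8 weeks and 0.183 to 0.249 at 12 weeks. *Adipoq* of this list had 0.147, 0.0460, 0.0806 and 0.0413 CPM at 10 weeks. That overlapped with 0 to 0.101 CPM at 8 weeks, and at 12 weeks *Adipoq* was at 0. From the hepatocyte, kidney and cholangiocyte lists, *Ttr*, *Lrp2*, *Krt19* and *Krt7* also passed edgeR's adjusted p as higher at 10 against 8 weeks. Their log2 fold changes were 3.27, 4.10, 2.89 and 3.25, and 0.76% of all genes were called higher there. Of the same lists, *Alb* (edgeR adjusted p = 0.0772) and *Sox9* (edgeR adjusted p = 0.232) did not pass. *Slc34a1* and *Nphs1* of the kidney list were at 0 in all heart libraries of 10 weeks. Which cells of the heart libraries these markers came from was not tested, nor was the part of any cell type in the *Cyp2e1* count.

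**Figure D3:**
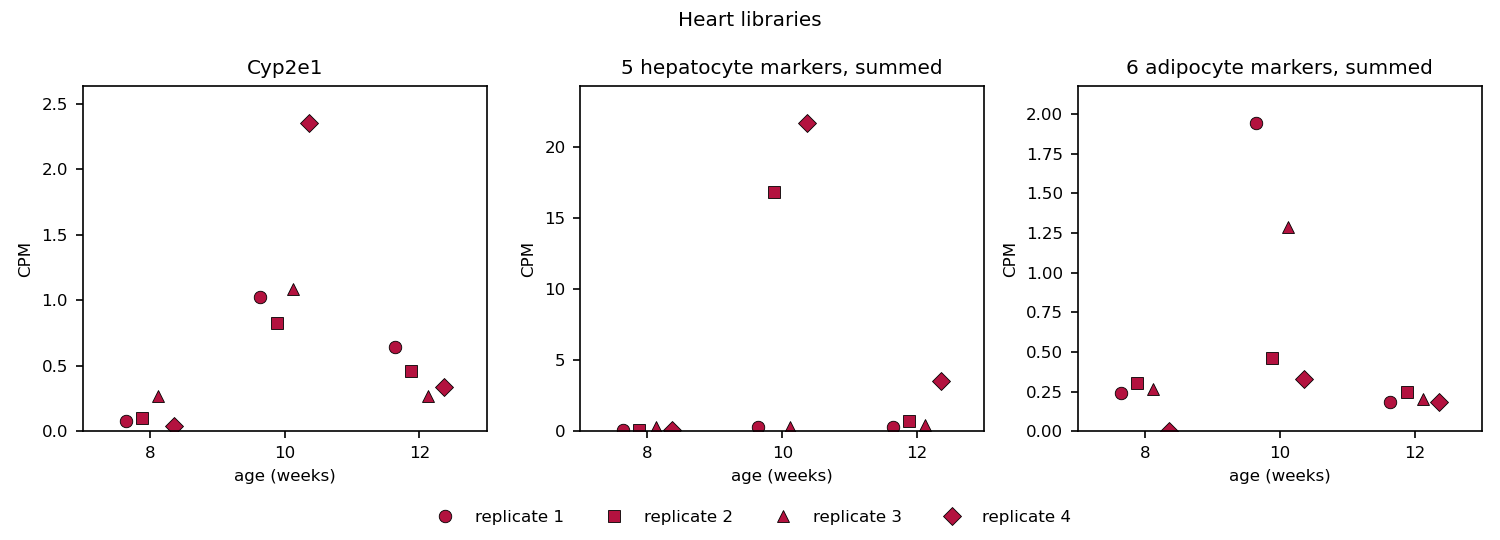
CPM of *Cyp2e1*, of 5 summed hepatocyte markers and of 6 summed adipocyte markers in the 12 heart libraries by age in weeks. Point shape gives the replicate number. *Cyp2e1* is highest in all 4 libraries of 10 weeks, the hepatocyte markers in replicates 2 and 4 of that age, and the adipocyte markers in its replicates 1 and 3.

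For the other genes in heart, edgeR called 0 at 12 against 8 weeks (4.56% of all genes) and 0 at 12 against 10 weeks (0.0396%), and limma-voom called 0 there too. DESeq2 also called 0 (8.22% and 0.357% of all genes), and gave an adjusted p to only 4 of the genes in each of these comparisons. At an unadjusted p, *Cyp2e1* was higher and *Rnf43* lower at 12 against 8 weeks (12.1% and 11.3% of all genes), *Glul* lower at 10 against 8 weeks (7.5%), and *Cyp2e1* lower at 12 against 10 weeks (6.04%). *Rnf43* had 24, 15, 7 and 8 read pairs at 8 weeks, 8, 3, 12 and 5 at 10 weeks, and 0, 7, 8 and 7 at 12 weeks, with a log2 fold change of -1.38 ± 0.55 at 12 against 8 weeks (edgeR adjusted p = 0.143). Its CPM at 12 weeks lay below all of 8 weeks, as in 4.76% of all genes. *Glul* stood at 486, 657, 695 and 809 CPM at 8 weeks and 431, 718, 409 and 451 at 10 weeks (log2 fold change -0.40 ± 0.18, edgeR adjusted p = 0.286). Without 10-week replicate 2, this passed edgeR's adjusted p (0.0299). *Oat*, *Axin2*, *Slc1a2* and *Tbx3* had no unadjusted p under 0.05 in heart, with log2 fold changes from -0.03 to 0.10 for *Oat*, -0.12 to 0.09 for *Axin2*, -0.04 to 0.03 for *Slc1a2* and -0.19 to -0.06 for *Tbx3*.

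Across the 3 tissues, all 10 genes were higher in liver than in kidney past edgeR's adjusted p, where 37% of the 19716 genes tested were. Of these, 9 differed by more than 1 on the log2 scale (17.2% of all genes), with *Glul* at 0.91 ± 0.12. All 10 were also higher in liver than in heart (42.2% of all genes), 9 of them by more than 1 (26.5%), with *Axin2* at 0.98 ± 0.13. TMM scaling itself moved all genes by 0.79 between liver and kidney, by 0.27 between liver and heart and by -0.53 between kidney and heart against scaling by library size alone. With library size alone, *Glul* had a log2 fold change of 0.13 between liver and kidney and was not called, while the other 9 kept their call. In CPM, *Glul* stood at 974 ± 148 in liver, 891 ± 181 in kidney and 570 ± 133 in heart (SD, n = 12), the most even of the 10 between liver and kidney.

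**Figure D4:**
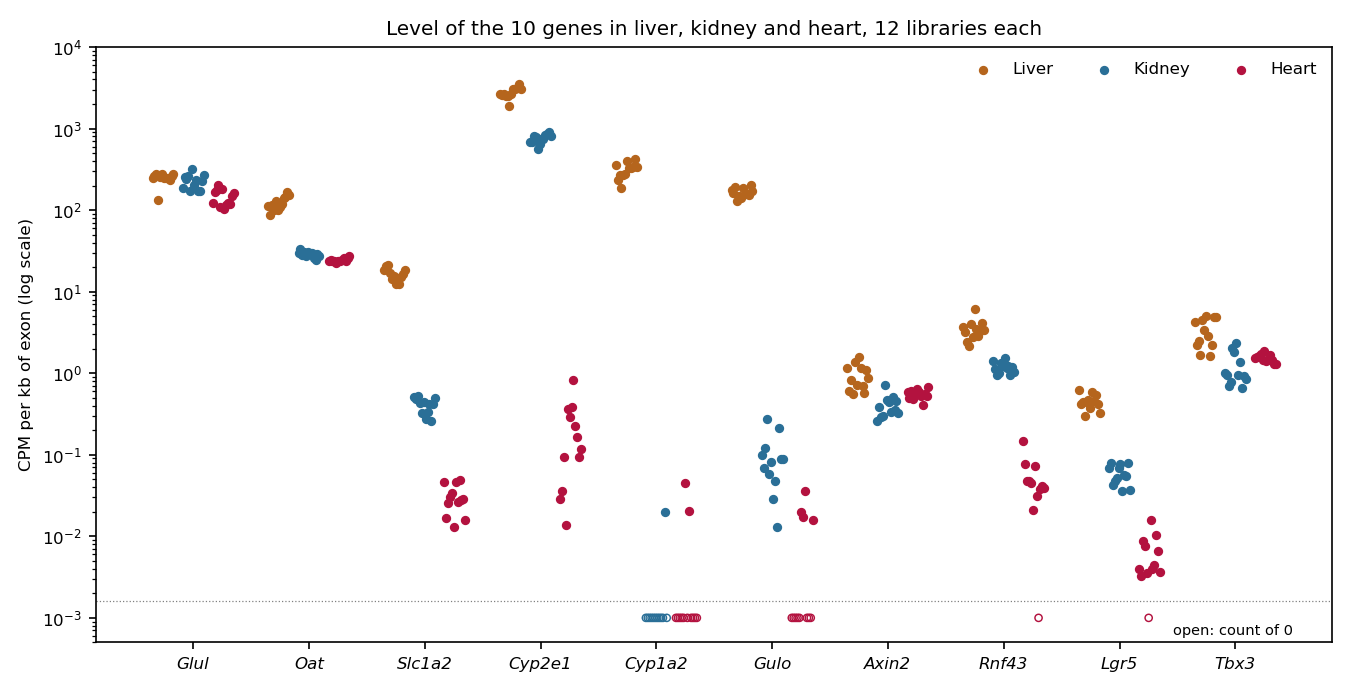
Level of the 10 genes in CPM per kilobase of exon (log axis) in the 12 libraries of each tissue, with open points for a count of 0. All 10 have their highest mean in liver, and *Cyp1a2* and *Gulo* lie farthest apart. *Glul*, *Axin2* and *Tbx3* overlap between liver and kidney and between liver and heart.

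The enzymes divided by tissue. *Cyp2e1* stood at 7826 ± 1134 CPM in liver, 2143 ± 283 in kidney and 0.624 ± 0.653 in heart. *Cyp1a2* had 204298 read pairs over the 12 liver libraries, 1 over the kidney libraries and 3 over the heart libraries. The ratio of liver to kidney was 211347 (95% counting interval 37933 to 8347750) and that of liver to heart 65174 (22301 to 316036). *Gulo* had 78 read pairs over the kidney libraries and 5 over the heart libraries, and ratios of 1623 (1300.2 to 2053) and 23419 (10035 to 72125). These intervals are exact for counting error and cover nothing else. *Oat* stood at 962 ± 188 CPM in liver, 224 ± 18.7 in kidney and 191 ± 11.1 in heart. Its difference between kidney and heart turned with the scaling, from -0.30 ± 0.05 with TMM to 0.23 with library size alone, and both were past edgeR's adjusted p. *Slc1a2* stood at 229 ± 40.2, 5.73 ± 1.28 and 0.421 ± 0.169 CPM in the same order.

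Of the Wnt genes, *Axin2* stood at 6.47 ± 2.34 CPM in liver, 2.80 ± 0.898 in kidney and 3.85 ± 0.531 in heart, and *Tbx3* at 27.5 ± 10.8, 9.85 ± 4.65 and 12.6 ± 1.39. Both were lower in kidney than in heart, with log2 fold changes of -1.02 ± 0.14 and -0.96 ± 0.17, and were also called lower with RLE factors and with library size alone. *Rnf43* stood at 22.7 ± 6.77, 7.72 ± 1.18 and 0.334 ± 0.242 CPM and *Lgr5* at 4.63 ± 0.994, 0.599 ± 0.166 and 0.0614 ± 0.0425, with 196 and 19 read pairs over all kidney and all heart libraries. Between kidney and heart, edgeR called 8 of the 10 genes (86.1% of all genes). Higher in kidney were *Cyp2e1*, *Slc1a2*, *Gulo*, *Rnf43* and *Lgr5* (47.1% of all genes) and lower, with TMM, *Oat*, *Axin2* and *Tbx3* (39%). *Glul* was not called there with TMM (0.13 ± 0.12, edgeR adjusted p = 0.310), but was called higher in kidney with library size alone (0.65, edgeR adjusted p = 3.59e-06) and without the count filter (0.16, edgeR adjusted p = 0.0453). For *Cyp1a2* both tissues were at the floor and no fold is given.

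A model of all 36 libraries with an interaction of tissue and age compared the change from 8 to 12 weeks across the tissues. It differed for *Oat*, by 0.76 ± 0.13 between liver and kidney (edgeR adjusted p = 0.00883) and by 0.49 ± 0.13 between liver and heart (edgeR adjusted p = 0.0271), higher in liver both times. The shares of all genes past this test were 0.304% and 4.16%, and with DESeq2 1.48% and 6.8%. DESeq2 called *Oat* in both, and *Cyp2e1* and *Rnf43* as well between liver and heart. For the other 9 genes edgeR's adjusted p was not passed in either comparison, and between kidney and heart 0 of the 10 passed (0.112% of all genes), with an unadjusted p under 0.05 for *Cyp2e1* and *Rnf43*. DESeq2 (1.11% of all genes) and limma-voom called 0 between kidney and heart as well. The difference of *Oat* between liver and kidney was called in all 6 other settings and with each of the 36 libraries left out (0.66 to 0.81). That between liver and heart was called in all 6 settings and in 31 of 36 fits without a library (0.40 to 0.55). It was not called without liver 8-week replicate 2, liver 12-week replicate 3, heart 8-week replicate 2, or heart 12-week replicate 2 or 3, with adjusted p-values of 0.0518 to 0.0704. Between liver and heart, *Cyp2e1* passed without heart 8-week replicate 3, and *Rnf43* without liver 8-week replicate 1 or 10-week replicate 3. Without the count filter both passed (edgeR adjusted p = 0.0436 and 0.0016). With age and library number as a block, *Rnf43* passed (edgeR adjusted p = 0.0247). The labels do not say whether a library number shared by the tissues marks 1 mouse.

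Over the 12 liver libraries, log2 CPM values were correlated for all 45 pairs of genes. With TMM factors, 0 pairs passed after Benjamini-Hochberg adjustment of permutation p-values, and with library size alone 4 did. The strongest were *Cyp2e1* with *Oat* (Pearson r = 0.78, permutation p = 0.00237, adjusted p = 0.0533; Spearman rho = 0.82, permutation p = 0.00161, adjusted p = 0.0724) and *Axin2* with *Tbx3* (r = 0.78, permutation p = 0.00484, adjusted p = 0.0544; rho = 0.78, permutation p = 0.00373, adjusted p = 0.0805). *Axin2* with *Rnf43* had r = 0.76 and *Tbx3* with *Rnf43* r = 0.72. Leaving out the 2 libraries farthest from the median of the former gene gave r = 0.78, 0.73, 0.61 and 0.66 for these 4 pairs. Within ages, on deviations from the age means, r was 0.49 for *Cyp2e1* with *Oat*, 0.76 for *Axin2* with *Tbx3*, 0.73 for *Axin2* with *Rnf43* and 0.66 for *Tbx3* with *Rnf43*, and 0 pairs passed (adjusted permutation p from 0.1103 to 0.219 for these 4). *Lgr5* had r between -0.15 and 0.29 with each of the other 9 genes, and *Glul* with *Cyp2e1* had 0.04. All pairs share libraries and their depth.

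**Figure D5:**
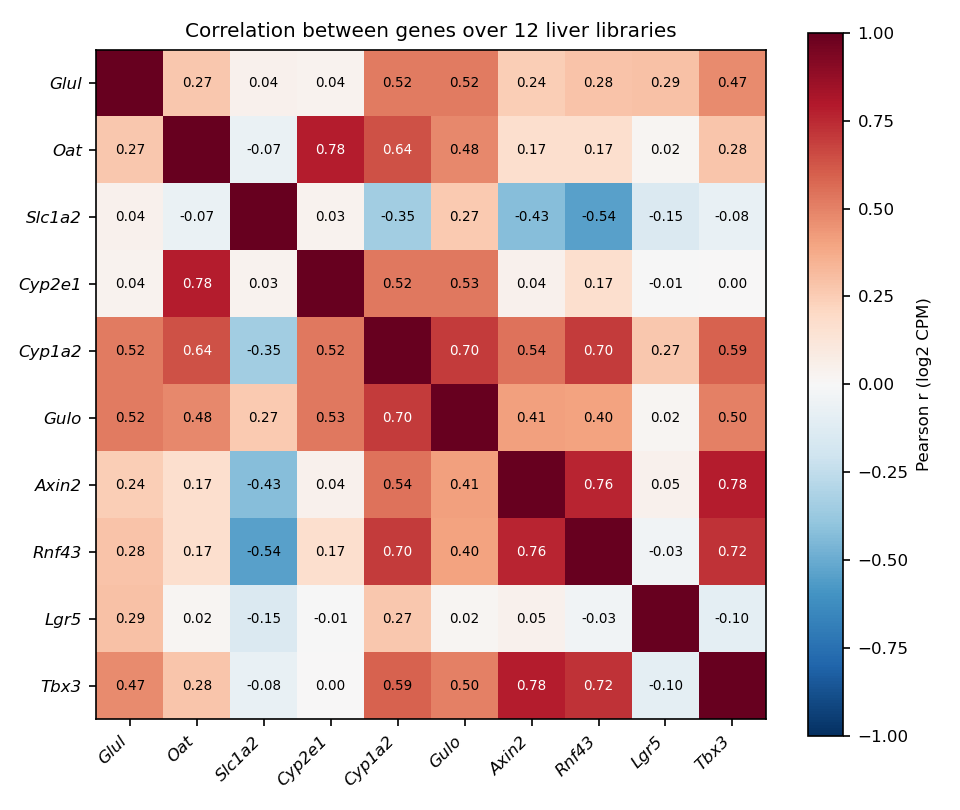
Pearson r between the log2 CPM values of the 10 genes over the 12 liver libraries, red above and blue below 0. The Wnt genes *Axin2*, *Rnf43* and *Tbx3* have 0.72 to 0.78 with each other, *Cyp2e1* and *Oat* 0.78, and *Lgr5* lies between -0.15 and 0.29 with all.

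Among all genes tested in liver, those with the highest r with *Cyp2e1* were *Cryz* (0.97), a quinone reductase, *Gcdh* (0.96), a mitochondrial enzyme of lysine breakdown, and *Arl6ip1* (0.93). For *Axin2* they were *Gm45698* (0.90), *Wrap73* (0.87) and *Entpd6* (0.87). For *Glul* they were *Gm26813* (0.90), *Gm73134* (0.88) and *Gm42266* (0.87). These are the highest of 14671 values over 12 libraries and are given as a description.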

How the data were processed

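The authors trimmed the reads with cutadapt 4.2 and aligned them to GRCm39 with STAR 2.7.11b, per the labels, and deposited raw counts of read pairs per gene. Counts that ignore strand were taken. The 10 genes and all gene lists were chosen with earlier results of these data known. CPM is the count over all counted pairs. In each tissue, genes with a mean count of at least 10 and 2 or more samples above 0 in some age group were kept, and ages were compared with edgeR 4.0.16 (glmQLFit and glmQLFTest, TMM, Benjamini-Hochberg over all genes kept). Tissues and interactions came from a model of all 36 libraries. Standard errors are the log2 fold change over the root of F. A call is an adjusted p under 0.05. The methods were tested on simulated data. For 12 against 8 weeks these held log2 changes of 1 and 2 and none smaller. Recovered were 69% and 94% of them in liver, 87% and 99% in kidney, and 89% and 100% in heart. False calls made up 5.23%, 7.46% and 4.55% of the calls in the same order.

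The rule named all 10 members in every tissue and age, with values by library for those the results turn on. From each list, genes past the adjusted p at 12 against 8 weeks in liver are named, otherwise the 2 highest and the 2 lowest. Genes past the threshold in other comparisons, heart markers and *Cyp2a5* were named after their values were seen, and the adipocyte list was added then. Correlations used log2 CPM with TMM factors, a prior count of 2 and 100000 permutations. Copies of transcripts were sought with blastn 2.17.0 (at least 95% identity over 150 bases). Alternatives were RLE factors, library size alone, no count filter, filterByExpr, DESeq2 1.42.0, limma-voom (limma 3.58.1), 2 ages only, a fold change minimum, a replicate block and each library left out. Of the 6 symbols in the hepatocyte marker list, 5 matched, since *Tf* is no symbol of the annotation.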

Additional observations from a re-analysis of the deposited data

Results flagged for a closer look

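In 75 groups of 4 libraries, 4 had a library far from the other 3, where chance flags about 1 in 20 groups. *Cyp1a2* stood at 859 CPM in liver 12-week replicate 3, above 664 to 686 in the others. In heart at 10 weeks, replicate 2 was high for *Glul* (718 CPM) and for *Tbx3* (15.3 CPM), and replicate 4 was high for *Cyp2e1* (2.35 CPM). Replicates 2 and 4 of this group are also those with the highest summed hepatocyte markers, 16.9 and 21.7 CPM. The part of this in the 3 values was not tested.

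The change of *Oat* from 8 to 12 weeks differed between tissues in the interaction test, by 0.76 on the log2 scale between liver and kidney (edgeR adjusted p = 0.00883) and by 0.49 between liver and heart (edgeR adjusted p = 0.0271). The log2 fold change itself was 0.56 in liver, -0.18 in kidney and 0.07 in heart, and in none of the tissues was it past edgeR's adjusted p alone.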

How the results depend on the processing

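Without the count filter, edgeR called 1 member (*Oat*) in liver at 12 against 8 weeks and 1 at 12 against 10 weeks, 2 in kidney at 10 against 8 and 2 at 12 against 10 weeks, 2, 2 and 1 in heart at 12 against 8, 10 against 8 and 12 against 10 weeks, and 3 in the liver and heart interaction. Without the filter, 0.96% and 0.788% of all genes were called in these liver comparisons, 2.39% and 2.23% in kidney, 3.09%, 2.18% and 0.84% in heart, and 1.91% in the interaction. DESeq2 called 1, 1 and 2 in liver in the order 12 against 8, 10 against 8 and 12 against 10 weeks, 1 and 2 in kidney in the last 2, and 3 in the liver and heart interaction. The replicate block called 1 in kidney at 12 against 10 weeks (*Cyp2e1*, adjusted p = 0.0474) and 2 in that interaction (*Oat* and *Rnf43*), against 0.55% and 3.61% of all genes, and changed no other count. Within a tissue, this block joined libraries of different ages by replicate number. These are different mice, since the study grouped mice by age at sacrifice. Libraries with the same replicate number correlated at -0.265 to 0.171 across ages. Those of the same age with the same library number correlated at -0.00884 to 0.164 across tissues, and 4 of 36 of these were over 0.1. In 29 of 36 the same library number gave the highest correlation among the 4 libraries of the other tissue at that age, a hint from the data, not the design. The labels do not say whether a library number shared by tissues marks 1 mouse, and the fits without the block treat these libraries as independent. With single libraries left out, 0 to 1 and 0 to 2 were called in kidney in these comparisons, 1 to 2 in heart at 10 against 8 weeks, 0 to 2 in that interaction, and 0 to 2 pairs in the correlations, where library size alone gave 4. The cause was not tested.

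*Lgr5* in liver at 12 against 8 weeks turned from -0.00 to 0.00 (RLE, 0.00467; DESeq2, 0.00419; replicate block, 0.00250), 0.0197 (no filter) and 0.01 (limma-voom, 0.00686; 2 ages only, 0.00800), and ran from -0.13 to 0.18 without single libraries, as did *Axin2* from -0.11 to 0.33 and *Gulo* from -0.0177 to 0.17. *Oat* between kidney and heart turned to 0.23 with library size alone. Low counts limit *Lgr5* and *Axin2* in all tissues and *Rnf43* and *Cyp2e1* in heart.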
